A study of Mus musculus with 5 samples.

Results

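Claudins and the proteins that assemble with them at tight junctions were followed as 10 genes, Cldn1, Cldn3, Cldn4, Cldn5, Cldn7, Cldn8, Cldn10, Ocln, Tjp1 and F11r, chosen by their symbols among the 27998 genes of the deposited matrices. The data are single-cell RNA libraries of the number 4 mammary gland, its lymph node removed and its cells unsorted, from female BALB/cj mice aged 30 weeks. All 5 groups had been ovariectomized 20 weeks before a treatment of 1 week, so the untreated group too lacked ovaries. OVX received vehicle, OVX_E2 received 17β-estradiol (E2) at 1 µg per animal per day, and OVX_E2_P4 received E2 and progesterone (P4) at 0.1 mg per animal per day, by daily intraperitoneal injection. OVX_E2_PBDE and OVX_E2_P4_PBDE received the same hormones and food with polybrominated diphenyl ethers (PBDEs, flame retardants), namely BDE-47 at 7.1, BDE-100 at 0.4 and BDE-153 at 0.9 mg per kg of food, while the other groups ate matched food with DMSO. Each group gave 1 library, and the number of mice behind a library is not given in the sources used here.

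Tight junctions close the space between neighbouring cells near their apical side. Claudins form the strands, each with its own effect on which ions pass, occludin lies in the same strands, ZO-1 ties them to actin inside the cell, and junctional adhesion molecules bind the facing cells and help place the junction. In the mammary gland the luminal cells around the duct and alveolus carry this seal, which tightens at lactation and keeps milk apart from interstitial fluid, and the basal cells outside them are contractile. Endothelial cells seal vessels with a claudin of their own, Cldn5.

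The libraries held 2233 to 3536 barcodes and 19982067 to 42012988 unique molecular identifiers (UMIs, the count of captured transcripts). Cells were clustered library by library without the 10 genes and named from other markers as luminal hormone-sensing (L-Hor-like, 92 to 747 barcodes per library), luminal alveolar (L-Alv-like, 31 to 579), basal-like (60 to 148), endothelial-like (28 to 72) and fibroblast-like (885 to 2565). A cluster with markers of both luminal lineages was called mixed luminal. The endothelial-like clusters held 269 to 467 CPM of the endothelial cadherin Cdh5 and also 293 to 552 CPM of the pericyte marker Rgs5. Basal-like cells held 417 to 2083 CPM of the luminal keratin Krt18, highest in both PBDE libraries. A level in CPM is the sum of a gene's UMIs in a class of a library per 1000000 UMIs of that class. Fibroblast-like cells, which should lack most claudins, served as the gauge of RNA free in the suspension. For Cldn10 this gauge (31.8 to 56.0 CPM) was above the endothelial-like level (at most 23.7 CPM). For Cldn3 it differed between fibroblast-like clusters, from 1.99 to 36.9 CPM in OVX. With the libraries pooled, the gauge for Tjp1 was 17.9 CPM beside 26.7 CPM in L-Hor-like cells, while Cldn4 stood at 16.5 and 468 CPM. Whether the gauge for Cldn3, Cldn10 or Tjp1 was free RNA alone was not tested, so comparisons of these genes with it are descriptions. Values below are in the order OVX, OVX_E2, OVX_E2_PBDE, OVX_E2_P4, OVX_E2_P4_PBDE unless libraries are named.

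The UMIs of the epithelial claudins lay almost wholly in luminal barcodes (L-Hor-like, L-Alv-like, mixed and proliferating luminal). Of the UMIs of each gene over all barcodes, luminal barcodes held 95.7% for Cldn4, 94.6% for Cldn3, 96.0% for Cldn7, 93.5% for Cldn1, 95.8% for Cldn8 and 96.6% for Ocln. The share was lower for Cldn10 (83.1%, with 14.9% in fibroblast-like cells), F11r (88.5%) and Tjp1 (72.8%, with 19.0% in fibroblast-like cells). Cldn5 was the exception, with 89.4% of its 226 UMIs in endothelial-like cells. These shares also depend on class size. Of the UMIs of all genes, mixed luminal barcodes held 45067969, L-Hor-like 23823483, L-Alv-like 12739950 and proliferating luminal barcodes 7730075. Fibroblast-like cells held 44211397, basal-like cells 5185580 and endothelial-like cells 1895643. Luminal barcodes thus held the larger part of all UMIs. Over the 40 pairs of a gene with one of the 4 classes compared, the lowest library was above the highest fibroblast-like library in 20. In basal-like cells this held for Tjp1 and F11r, and in endothelial-like cells for Tjp1, F11r and Cldn5.

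**Figure D1:**
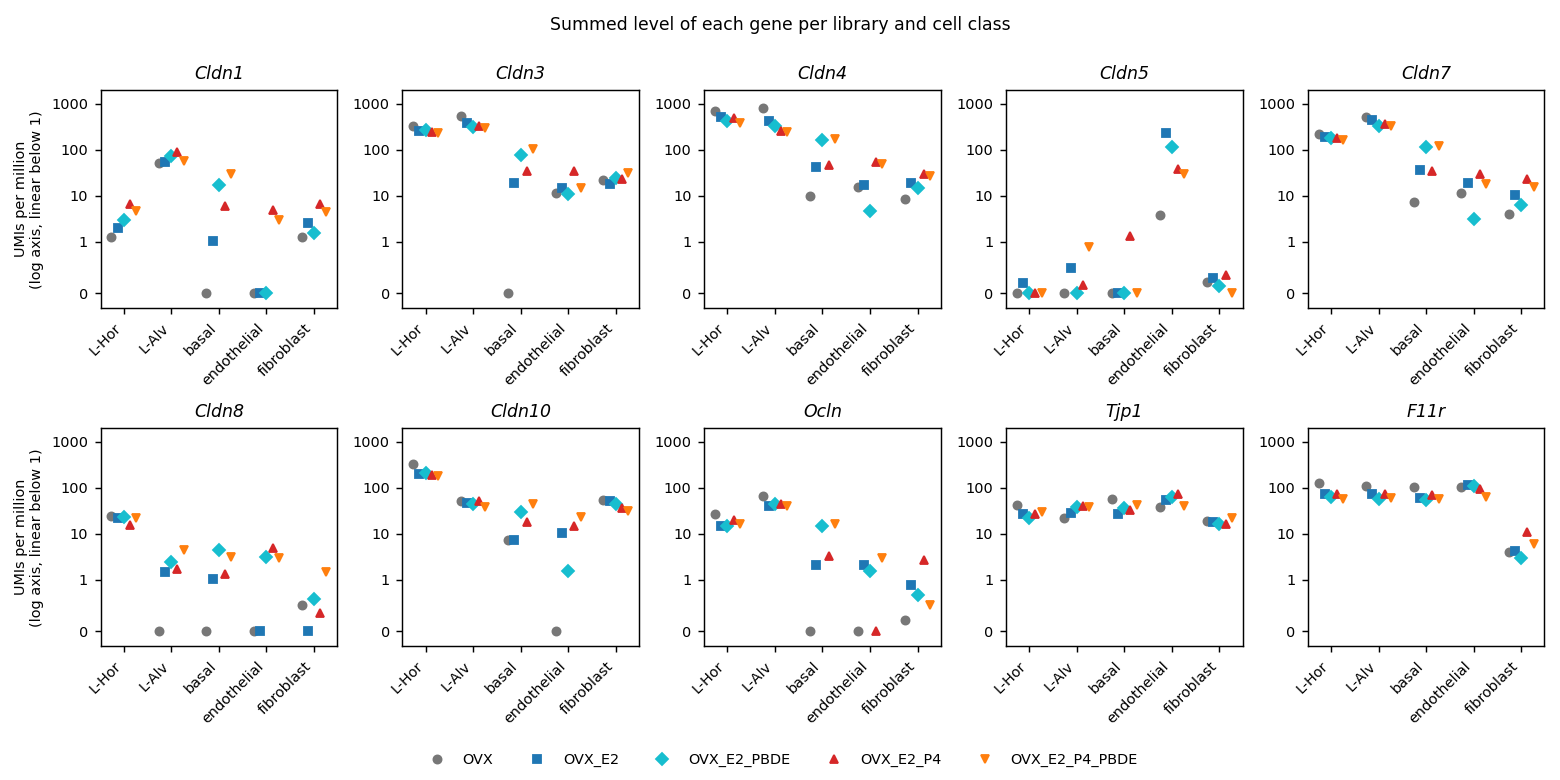
Summed level of each of the 10 genes in CPM (UMIs per 1000000) (log axis, linear below 1) by cell class, with a point for each library. Cldn1 lies at 53.4 to 91.3 in L-Alv-like cells and at 1.29 to 6.76 in L-Hor-like cells, Cldn8 and Cldn10 lie higher in L-Hor-like cells, and F11r is at like levels in the epithelial and endothelial classes.

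The 6 promoter windows below belong to the genes that set the classes apart: Cldn1 and Cldn10, which differed most between the luminal lineages with Cldn8, the neighbours Cldn3 and Cldn4, and the endothelial Cldn5. RefSeq's table (GRCm38.p6, the assembly mm10 names) matched 9 of the 10 genes with 12 windows, and Cldn8 had no entry. Each window is the 250 bases before a transcript start on the gene's own strand, 5′ to 3′, with E-boxes (CANNTG) and GC boxes (GGGCGG), searched on both strands, in capitals.
Cldn1, chr16:26371840-26372089, minus strand: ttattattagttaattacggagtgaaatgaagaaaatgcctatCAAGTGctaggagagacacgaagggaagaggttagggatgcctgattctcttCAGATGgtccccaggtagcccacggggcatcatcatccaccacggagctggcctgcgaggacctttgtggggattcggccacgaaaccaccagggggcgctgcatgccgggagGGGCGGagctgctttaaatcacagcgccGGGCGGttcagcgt
Cldn3, chr5:134985964-134986213, plus strand: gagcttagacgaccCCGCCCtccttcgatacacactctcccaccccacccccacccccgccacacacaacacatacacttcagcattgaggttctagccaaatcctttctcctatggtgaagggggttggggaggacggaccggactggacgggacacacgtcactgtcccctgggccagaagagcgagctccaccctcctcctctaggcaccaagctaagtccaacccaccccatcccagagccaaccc
Cldn4, chr5:134946935-134947184, minus strand: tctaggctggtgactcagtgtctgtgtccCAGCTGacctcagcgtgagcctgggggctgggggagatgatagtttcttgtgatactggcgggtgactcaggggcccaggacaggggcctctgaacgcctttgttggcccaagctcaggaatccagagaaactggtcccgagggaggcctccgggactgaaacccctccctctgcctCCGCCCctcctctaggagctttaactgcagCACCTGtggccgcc
Cldn5, chr16:18776597-18776846, plus strand: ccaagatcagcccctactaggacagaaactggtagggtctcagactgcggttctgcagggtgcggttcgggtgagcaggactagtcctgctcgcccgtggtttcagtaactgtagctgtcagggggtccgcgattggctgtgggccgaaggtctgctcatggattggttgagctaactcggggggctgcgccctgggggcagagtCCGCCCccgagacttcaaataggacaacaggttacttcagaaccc
Cldn10, upstream start, chr14:118787621-118787870, plus strand: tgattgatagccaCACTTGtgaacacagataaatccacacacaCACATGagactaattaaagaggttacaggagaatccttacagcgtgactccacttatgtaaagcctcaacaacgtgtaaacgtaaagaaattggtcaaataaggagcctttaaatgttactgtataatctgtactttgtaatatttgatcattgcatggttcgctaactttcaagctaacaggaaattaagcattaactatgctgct
Cldn10, downstream start, chr14:118854700-118854949, plus strand: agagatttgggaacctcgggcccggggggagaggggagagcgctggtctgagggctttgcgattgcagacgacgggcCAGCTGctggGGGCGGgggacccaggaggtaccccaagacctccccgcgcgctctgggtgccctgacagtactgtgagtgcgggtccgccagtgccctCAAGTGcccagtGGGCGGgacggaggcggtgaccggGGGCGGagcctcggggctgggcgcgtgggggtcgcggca

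The GC box stood in 10 of the 12 windows, against 32.7% of all 32851 promoter windows, and the E-box in 7 of the 12, against 66.2%. The TATA box TATAAA stood in 0 of the 12, against 12.4% of all. The share of G and C was 51.2% to 72.4% in the windows other than the upstream window of Cldn10, which stood at 36.0%, against a median of 52.4% over all promoters. These matches describe letters only. Cldn3 (chr5:134986214-134987472) and Cldn4 (chr5:134945119-134946934) lie 39279 bases apart on opposite strands. Cldn1 (chr16:26356642-26371841), Cldn5 (chr16:18776847-18778262) and Cldn8 (chr16:88560828-88563183) share a chromosome at longer distances. The gene Wbscr25 lies antisense to Cldn3.

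Cldn3, Cldn4 and Cldn7, the barrier-forming claudins of simple epithelia, were abundant in both luminal lineages. In CPM, Cldn3 stood at 560.2, 379.6, 317, 339 and 302 in the L-Alv-like and at 329.9, 261, 266, 247.5 and 235.5 in the L-Hor-like class. It was higher in L-Alv-like cells of each library, but the lineages overlapped across libraries and the difference did not pass the test (log2 fold change 0.55, SE 0.28, adjusted p = 0.0987, edgeR quasi-likelihood test over 5 libraries with the library as a block). Cldn4 stood at 805, 426, 334.5, 260.3 and 245 CPM in the L-Alv-like and at 696, 522, 434, 486 and 377 CPM in the L-Hor-like class. The L-Alv-like level was the higher in OVX alone, and the difference did not pass the test (−0.30, SE 0.36, edgeR adjusted p = 0.498). Cldn7 stood at 525, 443.5, 335, 364 and 333 CPM in the L-Alv-like and at 219, 195, 182.5, 178 and 166.5 CPM in the L-Hor-like class. All L-Alv-like values of Cldn7 were above all L-Hor-like values, with a log2 fold change of 1.15 (SE 0.27, edgeR adjusted p = 0.000982).

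After each cell was thinned to 3000 UMIs, Cldn3 was found in 48.3% to 58.7% of the L-Hor-like class, 53.6% to 71.0% of the L-Alv-like class and 5.32% to 9.15% of fibroblast-like cells. Without thinning the ranges were 70.1% to 87.8%, 76.8% to 93.8% and 10.1% to 14.4%. Median depths before thinning were 5543 to 10456 UMIs for the L-Hor-like class, 5452 to 11897 for the L-Alv-like class and 4252 to 7031 in fibroblast-like cells. Cldn4 was found in 53.9% to 67.4% of thinned L-Hor-like cells, 37.6% to 71.0% of thinned L-Alv-like cells and 2.38% to 7.01% of fibroblast-like cells, so both genes stood far above the gauge in either lineage.

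Cldn1, a claudin best known from the epidermal barrier, marked the alveolar lineage. Its level was 53.4, 55.6, 73.9, 91.3 and 57.4 CPM in L-Alv-like cells. In L-Hor-like cells it was 1.29, 1.99, 2.95, 6.76 and 4.64 CPM, beside 1.31, 2.54, 1.55, 6.59 and 4.51 CPM in fibroblast-like cells of the same libraries. The L-Hor-like values thus lay close to the gauge in every library, and all L-Alv-like values were far above both. The difference between the lineages was 4.21 on the log2 scale (SE 0.29, edgeR adjusted p = 1.62e-11), the largest among the 10 genes. In thinned cells Cldn1 was found in 9.59% to 21.8% of the L-Alv-like and 0 to 2.54% of the L-Hor-like class, where 0 of 92 cells in OVX allow up to 3.26%, and the fibroblast-like share was 0.313% to 2.22%.

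Cldn8 and Cldn10 had the opposite pattern. Cldn8, a barrier claudin known from the distal nephron and colon, stood at 24.6, 22.5, 22.9, 15.5 and 22.1 CPM in L-Hor-like cells. Its L-Alv-like values were 0, 1.46, 2.39, 1.71 and 4.55 CPM, where the 0 UMIs of OVX allow up to 13.3 CPM. Each L-Hor-like value was above each L-Alv-like value, and the fitted log2 fold change between the L-Alv-like and L-Hor-like classes was −3.14 (SE 0.25, edgeR adjusted p = 1.2e-10). After thinning, Cldn8 was found in 4.55% to 9.78% of L-Hor-like cells and in at most 0.452% of fibroblast-like cells.

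Cldn10, which forms paracellular ion channels rather than a seal, was at 332.5, 197, 214, 192 and 178 CPM in L-Hor-like cells. Its L-Alv-like values were 53.4, 46.8, 45.5, 51.2 and 39.2 CPM, a range that overlaps that of fibroblast-like cells (56.0, 51.0, 44.4, 35.8 and 31.8 CPM). L-Alv-like cells fell below L-Hor-like cells by 2.08 on the log2 scale (SE 0.23, edgeR adjusted p = 4.27e-08). The files count each gene as a whole, so its starts could not be told apart.

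Ocln encodes occludin, a membrane protein of the tight junction strands. It stood at 66.7, 41.5, 45.1, 45.6 and 41.0 CPM in the L-Alv-like class and at 27.2, 14.5, 14.9, 19.7 and 16.4 CPM in the L-Hor-like class, with no overlap. Its log2 fold change between the lineages was 1.45 (SE 0.20, edgeR adjusted p = 1.68e-06), and the fibroblast-like level was at most 2.67 CPM.

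Tjp1, which encodes the scaffold ZO-1, varied little between classes. It was at 22.2, 28.3, 38.3, 40.04 and 39.2 CPM in the L-Alv-like class and at 42.7, 27.7, 22.1, 27.3 and 29.8 CPM in the L-Hor-like class. The lineages overlapped, with L-Alv-like cells higher in 4 of the 5 libraries, and the fit gave 0.45 (SE 0.16, edgeR adjusted p = 0.0179). This call rested on single libraries: it was lost without OVX_E2_P4 (0.35, edgeR adjusted p = 0.142) or OVX_E2_PBDE (0.33, edgeR adjusted p = 0.152).

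F11r encodes JAM-A, an adhesion molecule of epithelial, endothelial and blood cells. It was at 127, 75.7, 63.5, 73.8 and 57.6 CPM in the L-Hor-like, 111, 73.7, 56.4, 74.0 and 61.0 CPM in the L-Alv-like and 103.5, 59.0, 53.9, 69.7 and 59.0 CPM in basal-like cells. Endothelial-like cells held 105, 116, 109, 92.9 and 65.2 CPM, and fibroblast-like cells 3.03 to 11.2 CPM. The 3 epithelial classes overlapped in F11r, and none of the 4 class comparisons passed the test for it, with log2 fold changes from 0.01 to 0.26 (SE 0.12 to 0.13, edgeR adjusted p from 0.0869 to 0.976). In thinned cells it was found in 17.2% to 33.3% of endothelial-like and 0.783% to 3.59% of fibroblast-like cells.

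Of the 9 genes tested, 6 were called between the luminal lineages, Cldn1, Cldn7, Ocln and Tjp1 higher in L-Alv-like cells and Cldn8 and Cldn10 lower. The background was high, with 58.0% of all 9029 genes called, 28.6% higher and 29.4% lower in L-Alv-like cells, and the share of the 9 lay near it. Their median log2 fold change was 0.45, against −0.0029 over all genes. Cldn5 was too low for the filter on counts, and without this filter Cldn3 (0.50) and Cldn4 (−0.35) were called as well. Without the top 20% of barcodes by Scrublet doublet score 7 of 9 genes were called, 5 higher and 2 lower, beside 60% of all genes. Of 27 tested genes of a wider tight junction list, 13 were higher and 3 lower in L-Alv-like cells. The largest increases were in the angiomotin relative Amotl1 (2.29), Cldn15 (1.97) and the polarity gene Pard6b (1.69). Of these Cldn15 passed narrowly (SE 0.84, edgeR adjusted p = 0.049). It was higher by 5.76 in endothelial-like than in epithelial cells, and the filter on counts also took the endothelial-like sums. Its luminal value is therefore a description only. The lowest values were in Cldn6 (−4.30), the scaffold gene Tjp3 (−0.53) and the tricellular junction gene Lsr (−0.44).

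**Figure D2:**
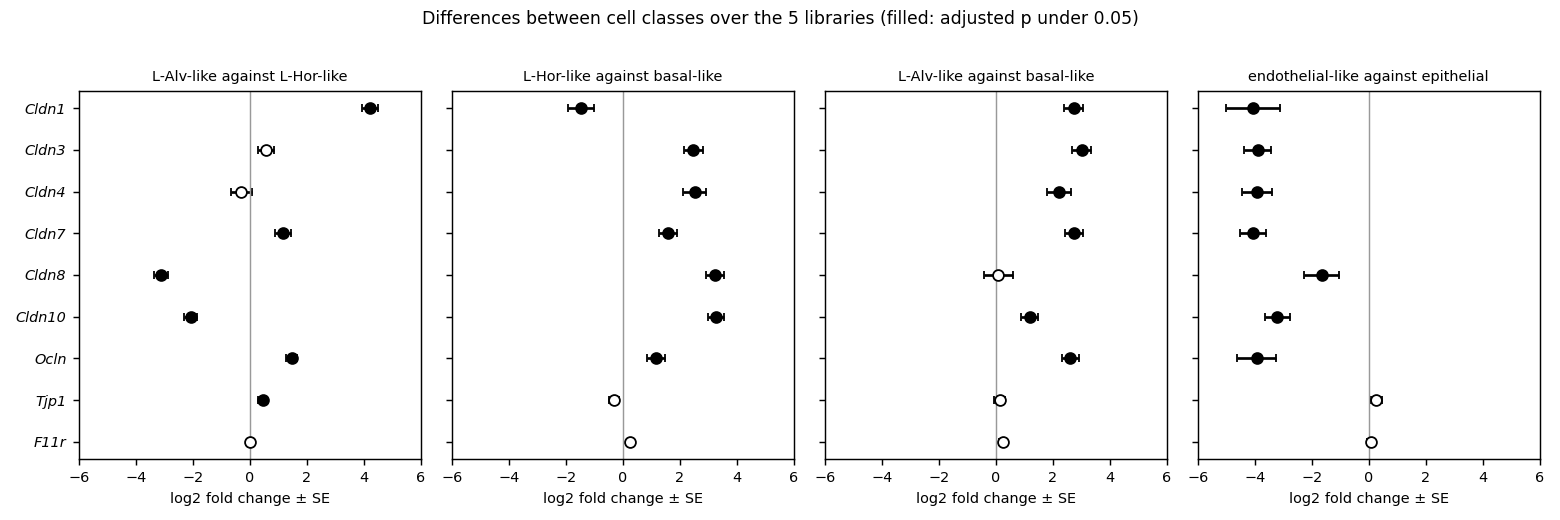
Log2 fold changes with SE from the edgeR fit over 5 libraries for the 9 tested genes in the 4 class comparisons, filled where the adjusted p is under 0.05. Cldn1 (4.21) and Cldn8 (−3.14) lie at opposite ends between the luminal lineages, and F11r stays near 0 in each panel.

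Basal-like cells held little of the barrier claudins. Cldn3 stood at 0, 19.0, 77.1, 35.2 and 106 CPM in basal-like cells, beside 22.6, 17.8, 24.3, 23.9 and 32.3 CPM in fibroblast-like cells. Cldn4 stood at 9.86, 43.2, 169, 46.5 and 170.5 CPM and Cldn7 at 7.40, 35.8, 114, 35.2 and 121 CPM. For these genes both PBDE libraries were the highest and OVX the lowest, below its fibroblast-like level for Cldn3, where 0 UMIs allow up to 7.4 CPM. The same limit holds for each gene at 0 in basal-like cells of OVX. The channel claudin Cldn10 was at 7.40, 7.38, 30.6, 17.9 and 45.3 CPM in basal-like cells, below the fibroblast-like level of the same library in all but OVX_E2_P4_PBDE, and Ocln was at 0, 2.11, 14.6, 3.32 and 16.8 CPM. Tjp1, in contrast, was at 56.7, 27.4, 37.1, 32.5 and 42.1 CPM in basal-like cells, above the 16.1 to 21.8 CPM of fibroblast-like cells.

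L-Hor-like cells exceeded basal-like cells in 6 of the 9 tested genes, by 3.27 for Cldn10 (SE 0.27, edgeR adjusted p = 3.45e-10), 3.23 for Cldn8, 2.51 for Cldn4, 2.46 for Cldn3, 1.59 for Cldn7 and 1.15 for Ocln (SE 0.33, edgeR adjusted p = 0.00398) on the log2 scale. Cldn1 fell by 1.47 (SE 0.44, edgeR adjusted p = 0.00614). Its basal-like values were 0, 1.05, 17.5, 5.97 and 29.5 CPM, high in both PBDE libraries, and without these libraries the value was 0.45 (edgeR adjusted p = 0.5002). The call for Ocln was lost without OVX_E2_P4 (0.78, edgeR adjusted p = 0.0664). Of all genes 60.1% were called and 30.1% were called higher in L-Hor-like cells. The median log2 fold change was 1.59 for the 9 genes against 0.01 for all. In the wider list 9 of 27 tested genes were higher in L-Hor-like cells, led by Cldn6 (3.27), Tjp3 (2.99) and the cingulin gene Cgn (1.94). Lower were 9, beside 30.0% of all genes, led by the adhesion gene Jam2 (−5.19), Amotl1 (−3.27) and the scaffold gene Mpdz (−2.95). Both shares lay near those of all genes.

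L-Alv-like cells exceeded basal-like cells in 6 genes as well, where 41.0% of all genes were called and 20.4% were called higher. The log2 fold changes were 3.01 for Cldn3 (SE 0.34, edgeR adjusted p = 1.12e-07), 2.74 for Cldn1, 2.74 for Cldn7, 2.61 for Ocln, 2.21 for Cldn4 and 1.19 for Cldn10 (SE 0.30, edgeR adjusted p = 0.00282). Cldn8 (0.09), F11r (0.26) and Tjp1 (0.13) did not pass the test. The median was 2.21 for the 9 genes and 0.01 for all genes. In the wider list 13 of 27 tested genes were higher, with Tjp3 (2.47) and the tricellulin family genes Marveld3 (2.34) and Marveld2 (2.21) first. Lower were 5, beside 20.6% of all genes, with Jam2 (−5.15), Mpdz (−2.16) and Esam (−1.69) last. Of these Esam passed narrowly (SE 0.67, edgeR adjusted p = 0.0477). Esam was higher by 8.35 in endothelial-like than in epithelial cells, whose sums also entered the filter, so its value here is a description only.

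Endothelial-like cells held little of the epithelial claudins. Against the mean of the 3 epithelial classes, 7 of the 9 tested genes fell, by 4.05 on the log2 scale for Cldn1, 4.05 for Cldn7, 3.94 for Ocln, 3.91 for Cldn4, 3.90 for Cldn3, 3.20 for Cldn10 and 1.65 for Cldn8, with edgeR adjusted p from 5.28e-08 to 0.0264. Cldn3 was at 11.7, 15.0, 11.1, 34.2 and 14.8 CPM there, Cldn4 at 4.76 to 53.8 CPM against at most 29.4 CPM in fibroblast-like cells, and Cldn10 below the fibroblast-like range. The values of Cldn1, Ocln and Cldn8 came from 2, 3 and 4 UMIs in endothelial-like cells of all libraries (SE 0.95, 0.68 and 0.61). The call for Cldn8 was lost without OVX_E2 (−1.34), OVX_E2_PBDE (−1.83) or OVX_E2_P4_PBDE (−1.65), the 3 with the edgeR adjusted p from 0.0685 to 0.0883. Of all genes 52.7% were called and 26.6% were called lower, and the medians were −3.90 for the 9 genes and −0.04 for all genes.

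Tjp1 in endothelial-like cells was at 38.9, 53.6, 63.4, 73.4 and 41.5 CPM, above the fibroblast-like level in each library. Neither Tjp1 (0.27, SE 0.19, edgeR adjusted p = 0.241) nor F11r (0.07, SE 0.13, edgeR adjusted p = 0.692) passed the test against the epithelial mean. In the wider list 7 of 27 tested genes were higher in endothelial-like cells, a share near the 26.1% of all genes called higher. They were led by the endothelial adhesion gene Esam (8.35), Jam3 (5.90) and Cldn15 (5.76). Lower were 17, beside 26.6% of all genes, led by the tricellular junction gene Ildr1 (−8.00), the adhesion receptor gene Cxadr (−5.14) and the scaffold gene Inadl (−4.89).

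Cldn5, the main claudin of vessel endothelium, was at 3.89, 236, 116, 39.1 and 29.6 CPM in endothelial-like cells, from 1, 110, 73, 8 and 10 UMIs. In the other 3 classes it reached at most 1.33 CPM, and in fibroblast-like cells at most 0.356 CPM. The filter of the edgeR test did not keep the gene. DESeq2, which kept it, gave 7.99 on the log2 scale against the epithelial classes (SE 1.11). Of the 208 Cldn5 UMIs in the 4 classes 202 were endothelial-like, so this value describes those same counts. Cldn5 was found in few barcodes, 1 of 33, 7 of 44, 16 of 72, 3 of 28 and 4 of 58. The 5 barcodes with the most Cldn5 held 98.2% of its UMIs in OVX_E2 and 57.5% in OVX_E2_PBDE.

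In OVX_E2 a single barcode held 70 of the 110 Cldn5 UMIs. It had 52097 UMIs in all, with 44 UMIs of Cdh5, 37 of Rgs5, 17 of Krt18 and 0 of Prox1, a marker of lymphatic endothelium. Without the top barcode of each library the levels were 0, 96.6, 96.7, 15.0 and 9.17 CPM, where the 0 of OVX allows up to 12.6 CPM, and those of OVX_E2 and OVX_E2_PBDE then lay close together. In OVX_E2_PBDE the 10 barcodes with more pericyte than endothelial markers held 475 CPM, from 36 UMIs, and the other 62 held 66.7 CPM. Such barcodes held 457 CPM in OVX_E2, 53.8 in OVX_E2_P4 and 105 in OVX_E2_P4_PBDE, from only 6, 1 and 1 UMIs. The barcodes with more endothelial markers there held 230, 39.9 and 27.4 CPM. In OVX the pericyte barcodes held 0 UMIs. The part of the pericyte signal in these values was not tested.

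**Figure D3:**
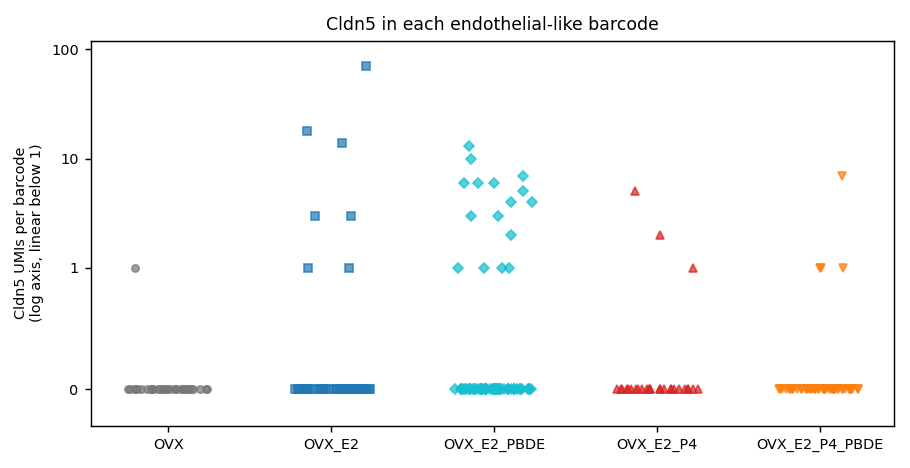
UMIs of Cldn5 in each endothelial-like barcode of the 5 libraries (log axis, linear below 1). In OVX_E2 a single barcode lies at 70 UMIs, while most barcodes of each library lie at 0.

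Over the 41 sums of a class in a library, the genes whose log2(CPM + 1) followed each member most closely were sought among 5055 genes, with the 10 members left out. The sums share libraries and depth, so the correlations are descriptions. Cldn4 followed Myh14 (Pearson r = 0.96) and Krt18 (0.96), and Cldn7 followed Krt18 (0.96) and Epcam (0.96), beside 0.96 between Cldn4 and Cldn7 themselves. Cldn1 followed Spp1 (0.94) and Plb1 (0.93), Cldn8 followed the prolactin receptor gene Prlr (0.93) and Ndufa7 (0.91), and Cldn10 followed Nupr1 (0.86) and Abhd17c (0.83). Cldn3 followed Mrpl14 (0.94) and Smim22 (0.93), Ocln Arrdc4 (0.91) and Plet1 (0.90), F11r Ano1 (0.94) and Tm4sf1 (0.93), Tjp1 Osmr (0.90) and Hspb1 (0.89), and Cldn5 Apold1 (0.92) and Cyyr1 (0.90).

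With 1 library per group the treatment comparisons have no replicate check. Each ratio below is a ratio of CPM between a pair of libraries with an exact 95% interval that covers counting error only, and differences between animals and preparations cannot be told apart from the treatments. Ratios were taken in the 4 classes where a gene had at least 10 UMIs over both libraries. Past 2-fold were 5 of 29 for OVX_E2 against OVX, 6 of 31 for OVX_E2_P4 against OVX_E2, 9 of 32 for OVX_E2_PBDE against OVX_E2 and 8 of 33 for OVX_E2_P4_PBDE against OVX_E2_P4. The same share over all genes was 21.0%, 9.74%, 9.79% and 12.5%. The comparisons share OVX_E2 or OVX_E2_P4.

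In both luminal lineages Cldn3 and Cldn4 were lower in OVX_E2 than in OVX, while the intervals of Cldn7 included 1 (0.892, 0.757–1.06 in L-Hor-like and 0.845, 0.697–1.03 in L-Alv-like cells). In L-Hor-like cells 8 of the 9 measured genes had a ratio below 1, with Ocln at 0.535 (0.326–0.915), Cldn10 at 0.592 (0.516–0.682), F11r at 0.597 (0.477–0.753), Cldn4 at 0.750 (0.684–0.825), Cldn3 at 0.791 (0.691–0.908) and Cldn8 at 0.915 (0.560–1.58). Of the 9 genes 0 passed 2-fold, against 18.6% of all genes and 9.1% of those with at least 50 UMIs. All genes leaned the same way, with 66.1% below 1. The median log2 ratio was −0.41 for the 9 genes and −0.24 for all genes. In L-Alv-like cells Cldn4 had a ratio of 0.529 (0.451–0.625) and Cldn3 of 0.678 (0.561–0.825), while Cldn1 stood at 1.04 (0.574–2.08). Of the 8 genes measured there 0 passed 2-fold, against 27.1% of all L-Alv-like genes. Of all L-Alv-like genes 51.7% were below 1, and the median log2 ratio was −0.40 for the 8 genes and −0.02 for all. The OVX values came from 92 L-Hor-like and 31 L-Alv-like barcodes. Of 25 genes of the wider list measured in L-Hor-like cells, 0 were past 2-fold higher and 4 past 2-fold lower. In basal-like cells Tjp1 had a ratio of 0.483 (0.265–0.886), Cldn4 one of 4.38 (1.59–16.8) from 41 and 4 UMIs and Cldn7 one of 4.84 (1.52–24.6) from 34 and 3 UMIs, and Cldn3 had 18 UMIs against 0. Without the 10 barcodes with the most Krt18 in each library Cldn4 was at 22.0 and 13.6 CPM and no longer past 2-fold.

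In endothelial-like cells the ratio of Cldn5 for OVX_E2 against OVX was 60.6, with an interval of 10.7 to 2416 since OVX held 1 UMI. It was 0.166 (0.0698–0.338) for OVX_E2_P4 against OVX_E2, 0.491 (0.360–0.666) for OVX_E2_PBDE against OVX_E2 and 0.757 (0.269–2.21) for OVX_E2_P4_PBDE against OVX_E2_P4. The first 3 rest on the 110 UMIs of OVX_E2, of which a single barcode held 70.

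With P4 added to E2, Cldn4 in L-Alv-like cells went from 426 to 260.3 CPM, a ratio of 0.611 (0.563–0.664), and Cldn1 from 55.6 to 91.3 CPM, a ratio of 1.64 (1.34–2.02). There Cldn7 had a ratio of 0.821 (0.760–0.887), Cldn3 of 0.894 (0.823–0.971) and Tjp1 of 1.415 (1.06–1.92). The L-Alv-like intervals of Cldn8, Cldn10, Ocln and F11r included 1. Of all L-Alv-like genes 59.9% were below 1, with a median log2 ratio of −0.10. In L-Hor-like cells the ratio of Cldn4 was 0.931 (0.885–0.9799). Cldn1 in L-Hor-like cells rested on 49 and 10 UMIs, with a ratio of 3.395 (1.70–7.52), and its fibroblast-like level went from 2.54 to 6.59 CPM between the same libraries. Cldn8 in L-Hor-like cells was at 15.5 CPM with P4 and 22.5 CPM without it (ratio 0.687, 0.524–0.900), and Ocln at 19.7 and 14.5 CPM (ratio 1.36, 1.02–1.83). The other L-Hor-like genes had ratios between 0.912 and 0.987, beside a median log2 ratio of −0.08 over all genes. Past 2-fold in basal-like cells were Cldn1 (9 against 1 UMIs) and Cldn10 (27 against 7), beside 10.9% of all genes. In endothelial-like cells Cldn3 (7 against 7 UMIs) and Cldn4 (11 against 8) passed 2-fold as well as Cldn5, beside 16.6% of all genes. As means over cells, Cldn3 and Cldn4 were not past 2-fold there.

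In L-Hor-like cells Cldn4 and F11r were lower in each PBDE library than in its partner. Cldn4 had ratios of 0.831 (0.788–0.875) with E2 and 0.775 (0.728–0.825) with E2 and P4, and F11r had 0.839 (0.731–0.965) and 0.780 (0.662–0.917). Cldn3, Cldn7 and Cldn10 lay between 0.927 and 1.09 in both. Cldn8 was at 1.02 (0.796–1.31) with E2 and at 1.43 (1.06–1.92) with E2 and P4, where it stood at 22.1 against 15.5 CPM. None of the 9 L-Hor-like genes passed 2-fold in either comparison, against 6.0% and 8.1% of all genes. Of all genes with at least 50 UMIs the shares were 1.75% and 2.98%. All L-Hor-like genes leaned downward, with 68.2% and 59.8% of them below 1 and median log2 ratios of −0.16 and −0.10. In L-Alv-like cells with E2 the ratios were 0.785 (0.716–0.861) for Cldn4 and 0.756 (0.690–0.828) for Cldn7, and with E2 and P4 they were 0.941 (0.824–1.07) and 0.915 (0.817–1.02). Of all L-Alv-like genes 64.6% were below 1 with E2 and 55.4% with E2 and P4. For Cldn1 in L-Alv-like cells the ratio was 1.33 (1.05–1.68) with E2 and 0.628 (0.477–0.816) with E2 and P4. Its lowest L-Alv-like level in a library with E2 was 55.6 CPM and its highest 91.3 CPM, both without PBDEs.

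**Figure D4:**
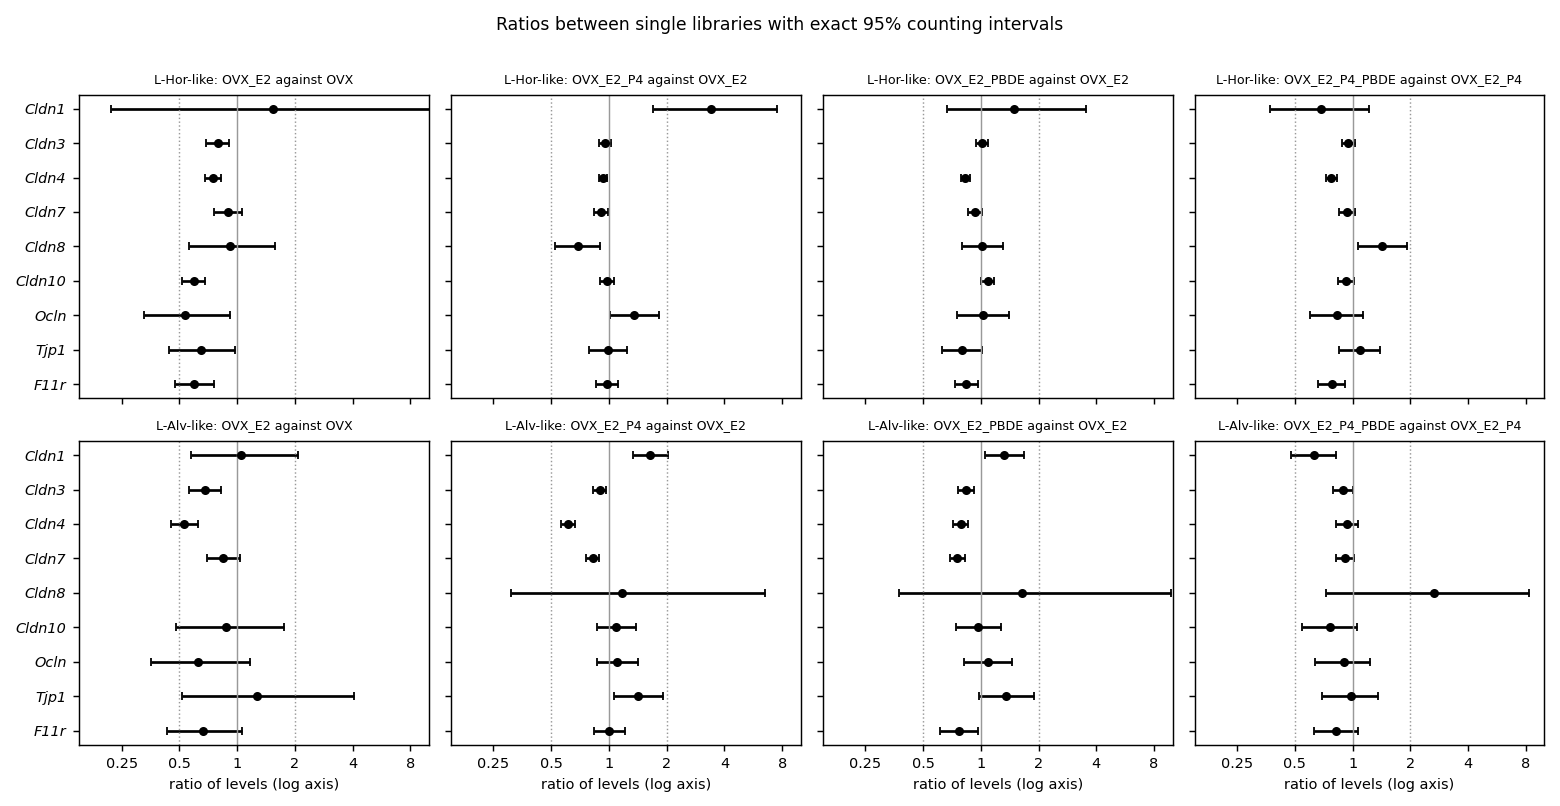
Ratios of levels between pairs of single libraries (log axis) in the L-Hor-like (top) and the L-Alv-like class (bottom) for the genes measured, with exact 95% counting intervals, of which that of Cldn1 in L-Hor-like cells of OVX_E2 against OVX runs past the axis. Cldn4 lies below 1 in each panel, from 0.529 to 0.941, and Cldn1 in L-Alv-like cells lies at 1.64 for P4 and at 0.628 for PBDEs with both hormones.

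In basal-like cells the luminal claudins were higher in both PBDE libraries than in their partners. With E2 the ratios were 4.07 (2.45–7.13) for Cldn3, 3.91 (2.79–5.59) for Cldn4, 3.19 (2.19–4.77) for Cldn7 and 4.14 (1.85–10.9) for Cldn10. With E2 and P4 they were 3.02 (2.15–4.30), 3.67 (2.76–4.93), 3.44 (2.47–4.86) and 2.53 (1.53–4.25). Ocln (20 against 2 and 16 against 5 UMIs) and Cldn1 (24 against 1 and 28 against 9 UMIs) were also past 2-fold. This made 6 of 8 genes in each comparison, where 6.84% and 6.1% of all genes were past 2-fold higher in these cells. In the wider list 7 of 24 and 2 of 23 genes were past 2-fold higher. The scaffold gene Tjp1 (1.36 and 1.30) and F11r (0.913 and 0.846) were not past 2-fold.

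Markers of luminal cells were high in the same libraries. Basal-like Krt18 was at 417, 646, 1925, 679 and 2083 CPM, the alveolar marker Csn3 at 27.1, 78.0, 362, 123 and 518 CPM and the hormone-sensing marker Areg at 4.93, 34.8, 146, 71.0 and 253 CPM, and each was highest in the PBDE libraries. The basal keratin Krt14 was at 3895, 1747, 1101, 1542 and 1076 CPM. The 10 basal-like barcodes with the most Krt18 held 56.6% of Cldn3, 65.1% of Cldn4 and 71.3% of Cldn7 UMIs in OVX_E2_PBDE and 71.3%, 67.9% and 73.9% in OVX_E2_P4_PBDE. Their median depth was 44512 and 34636 UMIs, against 10624.5 and 7714 in the other basal-like barcodes of these libraries. In the partner libraries the 10 held 66.7%, 58.5% and 58.8% in OVX_E2 and 47.2%, 42.9% and 39.6% in OVX_E2_P4. Their median depth there was 17374 and 17518 UMIs, against 10084 and 7618 in the other barcodes. The 10 were ranked by UMIs of Krt18 and not by its level, which favours deep barcodes. The 10 came from 80 barcodes in OVX_E2_PBDE and 71 in OVX_E2, but from 64 in OVX_E2_P4_PBDE and 148 in OVX_E2_P4. Their removal thus trimmed the pair with P4 unequally. Without the 10 barcodes in each library the ratios of Cldn3, Cldn4 and Cldn7 were 6.40, 3.98 and 2.69 with E2 and 2.24, 2.81 and 2.02 with E2 and P4. With E2 and P4 Cldn10 was then at 1.77 (0.893–3.45), no longer past 2-fold, and Cldn1 at 2.78 (0.920–8.77). This removal left the luminal markers highest in both PBDE libraries. In the remaining barcodes Krt18 was at 323.7, 303.6, 880.5, 455.2 and 1166 CPM. Csn3 was at 20.44, 55.55, 145.7, 55.94 and 261.4 CPM and Areg at 6.81, 18.08, 96.03, 39.08 and 162.1 CPM. As means over cells, Cldn7 was at 1.60 with E2 and 1.85 with E2 and P4, and Cldn10 at 1.64 with E2 and P4. Cldn10 with E2 and P4 was also not past 2-fold at 5% mitochondrial UMIs or without the top 20% of barcodes by Scrublet doublet score. At a clustering resolution of 1.0 a group of 16 deep barcodes (median 36131.5 UMIs) left the basal-like class of OVX_E2_PBDE. By its markers this group was named mixed, with scores of 0.302 for basal, 0.295 for L-Hor and 0.403 for L-Alv. Its median Scrublet score was 0.325, against 0.140 in the basal-like class that remained. The ratios with E2 then became 1.28 for Cldn3, 0.707 for Cldn4 and 0.746 for Cldn7. At this resolution the basal-like classes of OVX_E2_P4 and OVX_E2_P4_PBDE kept their 148 and 64 barcodes. The ratios with E2 and P4 therefore could not change, and this setting did not probe them. Per 100 UMIs of Krt18, basal-like cells held 2.37, 6.69, 8.77, 6.84 and 8.19 UMIs of Cldn4. For Cldn7 the values were 1.775, 5.55, 5.94, 5.18 and 5.81, and for Cldn3 they were 0, 2.94, 4.01, 5.18 and 5.10. For each of these genes the interval of a PBDE library overlapped that of its partner. Partner intervals were wide, such as 1.73 to 4.68 for Cldn3 and 4.75 to 9.18 for Cldn4 in OVX_E2, from 18 and 41 UMIs. The part of luminal RNA or of droplets with more than 1 cell in the basal-like ratios was not tested.

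**Figure D5:**
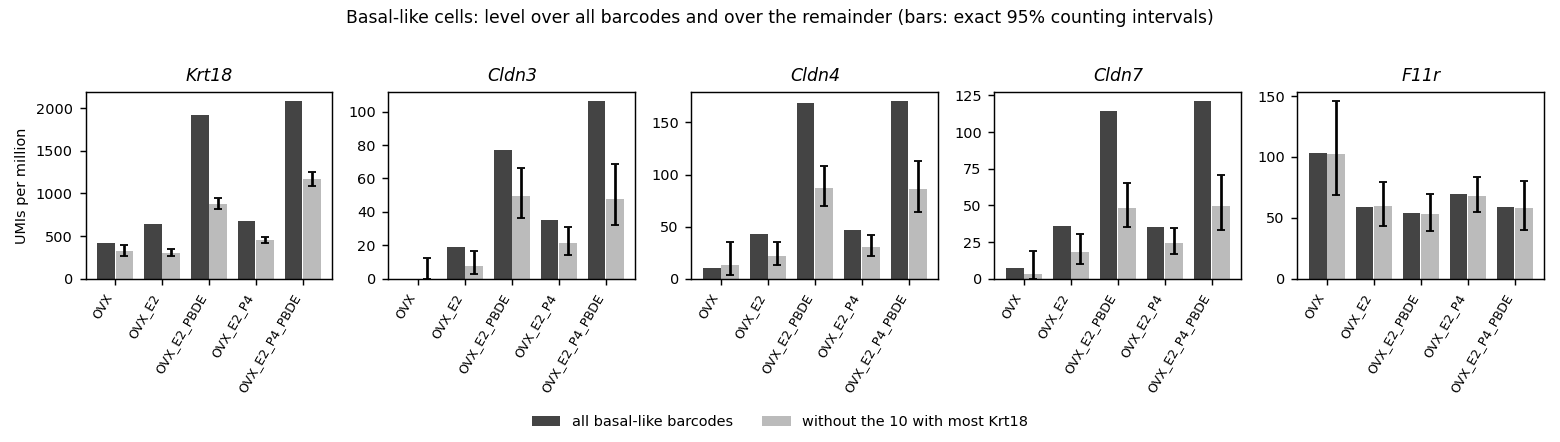
Level of Krt18, Cldn3, Cldn4, Cldn7 and F11r in basal-like cells of each library in CPM (UMIs per 1000000), over all barcodes (dark bars) and without the 10 barcodes with the most Krt18 (light bars, with exact 95% Poisson intervals). Krt18 and the claudins are highest in the PBDE libraries in both sets. Cldn4 is at 169 and 170.5 over all barcodes and at 87.4 and 86.0 without the 10. Krt18 is still at 880.5 and 1166 there without the 10, while F11r is highest in OVX at 103.5.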

How the data were processed

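RNA was measured in 5 single-cell libraries, 1 per group, made with the Chromium 3′ v2 kit. The authors aligned reads to mm10 and counted UMIs per gene and barcode with Cell Ranger 2.0.0, per the labels, and deposited whole-number counts of the called barcodes without normalization. Those called barcodes held at least 3374 UMIs. Shallower barcodes were not analysed here. Pairs of libraries shared 3 to 15 barcode sequences.

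A barcode was kept with at least 500 genes and 1000 UMIs and at most 10% mitochondrial UMIs, which left 14317 of 14344. Each library was clustered with Seurat 5.3.0 in R 4.3.3 (2000 variable genes without the 10 members and the wider list, 10 components, resolution 0.3 for OVX and 0.5 for the others). A class needed a marker score of at least 0.25, where each marker was scaled to its highest cluster and the scaled values were averaged. No barcode was removed as a doublet. Scrublet, run in scanpy 1.11.5 with 30 components and an expected rate of 20%, served an alternative.

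Counts summed per library and class, for classes with at least 20 barcodes, were tested with edgeR 4.0.16 (quasi-likelihood test, TMM, filterByExpr, library as block, Benjamini-Hochberg over 9029 genes, call at an adjusted p under 0.05). With the library as a block, the p-values measure only how far differences between classes vary over these 5 libraries, which differ in treatment. Treatments were not tested against each other, since each group has 1 library. Ratios needed at least 10 UMIs over both libraries, and the share past 2-fold was taken over all genes with the same minimum. Intervals are exact 95% Poisson or Clopper-Pearson intervals, and a limit allowed by a 0 is the value that 3 counts would set. Positions come from GENCODE M21 (GRCm38) and promoters from RefSeq.

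All 10 members were named, with up to 3 called genes of the wider list at each end of a class comparison, and the 2 genes with the highest Pearson correlation to each member among genes of at least 20 CPM on average, members left out. The members and lists were chosen with earlier results of these data known. The fit was tested on simulated data. Alternatives were DESeq2 1.42.0, its size factors, no filter, a mitochondrial threshold of 5%, resolution 1.0, the members kept in clustering, the top 20% of Scrublet scores left out, no library block, each library left out, fibroblast-like levels subtracted, means over cells and at least 50 UMIs. Added after the data were seen were fits without both PBDE libraries, with endothelial barcodes split by markers, and ratios without the 10 basal-like barcodes with the most Krt18.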

Additional observations from a re-analysis of the deposited data

Results flagged for a closer look

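The ratio of Cldn1 in L-Alv-like cells with PBDEs lay on opposite sides of 1 in the presence and absence of P4. It was 1.33 (1.05–1.68) for OVX_E2_PBDE against OVX_E2, with 73.9 and 55.6 CPM, and 0.628 (0.477–0.816) for OVX_E2_P4_PBDE against OVX_E2_P4, with 57.4 and 91.3 CPM. The difference between these ratios was not tested, since each group is 1 library.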

How the results depend on the processing

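The number of members called in each of the 4 class comparisons stayed within 1.5 times under every alternative run, and of 513 values of single genes 479 kept their direction and side of the threshold. The uncalled F11r changed sign between the luminal lineages, at −0.0361 without the filter, −0.0136 without the library block, −0.0062 with the members kept in clustering, −0.0135 without the top Scrublet scores, and −0.0262 to 0.0492 with each library left out. Against the epithelial classes F11r was −0.0371 without the filter, −0.0618 without both PBDE libraries and −0.0908 to 0.16 with each library left out. For L-Alv-like against basal-like cells the ranges with each library left out crossed 0 for Cldn8 (−0.0523 to 0.57) and Tjp1 (−0.0164 to 0.24). Cldn1 in L-Hor-like against basal-like cells turned to 0.45 without both PBDE libraries and was not called under DESeq2 (−1.34), at resolution 1.0 (−0.999), with the members kept in clustering (−0.99), without OVX_E2_PBDE (−1.08) or without OVX_E2_P4_PBDE (−0.96). Cldn8 in endothelial-like cells was not called under DESeq2 (−1.65) or at 5% mitochondrial UMIs (−0.85).

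Counts of ratios past 2-fold moved more. For OVX_E2 against OVX, 5 of 29 became 8 of 29 with means over cells and 1 of 19 with at least 50 UMIs. It became 3 of 27 without the 10 basal-like barcodes with the most Krt18. For OVX_E2_P4 against OVX_E2, 6 of 31 became 3 of 24 at 5% mitochondrial UMIs. It became 3 of 24 without the top Scrublet scores and 2 of 24 with at least 50 UMIs. For OVX_E2_PBDE against OVX_E2, 9 of 32 became 4 of 30 at resolution 1.0 and 4 of 24 with at least 50 UMIs. For OVX_E2_P4_PBDE against OVX_E2_P4, 8 of 33 became 4 of 23 with at least 50 UMIs. At 50 UMIs the share over all genes also fell. By class it was 3.62% to 14.3%, 1.67% to 5.03%, 1.73% to 6.17% and 2.98% to 6.93% in these comparisons. Apart from the changes at resolution 1.0, where deep barcodes left a class, and at 50 UMIs, where fewer ratios were counted, the cause was not tested. Of the 40 pairs of gene and class, 19 to 20 were above the gauge by level, and 17 (thinned) or 21 (not thinned) by share of cells. No paired analysis was possible because each group has 1 library. In the endothelial-like class, 28 to 72 barcodes limit what can be seen.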

Other observations

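Mixed luminal clusters (163 to 489 barcodes per library) held levels of most members between those of the 2 named lineages. Their level lay between the L-Hor-like and L-Alv-like levels in 5 of 5 libraries for Cldn1, Cldn7, Cldn8, Cldn10 and Ocln, in 4 for Cldn3 and Tjp1, in 3 for Cldn4 and in 0 for F11r. Cldn1, for example, was at 36.6, 29.5, 38.8, 49.8 and 32.4 CPM in the mixed clusters, and Cldn8 at 14.5, 8.83, 11.8, 8.42 and 13.4 CPM, in the order OVX, OVX_E2, OVX_E2_PBDE, OVX_E2_P4, OVX_E2_P4_PBDE. The median depth of the mixed clusters was 15341 to 25552 UMIs, against 5543 to 10456 in L-Hor-like and 5452 to 11897 in L-Alv-like clusters. In the OVX_E2 sample the authors considered a cluster with high counts to be doublets of both luminal types and left it out. Mixtures of both lineages in a droplet and cells that hold both programs cannot be told apart from these sums.

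Fibroblast-like cells held more Cldn10 beside Krt18 than either luminal lineage did in each library. Per 100 UMIs of Krt18, they held 64.2, 21.2, 28.1, 9.42 and 11.99 UMIs of Cldn10, against 9.12, 3.29, 3.84, 3.73 and 3.86 in L-Hor-like cells and 0.699 to 1.07 in L-Alv-like cells. For Cldn3 they held 25.9, 7.39, 15.4, 6.28 and 12.2 UMIs, against 9.05, 4.36, 4.78, 4.80 and 5.11 in L-Hor-like and 6.73 to 7.40 in L-Alv-like cells, and in OVX_E2 and OVX_E2_P4 their interval overlapped the L-Alv-like one. Cldn3 differed between fibroblast-like clusters of a library. In OVX it was at 36.9 CPM in the cluster led by Mrgprg, Krtdap and Akr1c18 and at 1.99 to 6.93 CPM in the other fibroblast-like clusters, and in OVX_E2_PBDE it was at 49.4 CPM in the cluster led by Krtdap and Mrgprg and at 6.27 to 15.9 CPM in the others. Cldn10 was at 50.9 CPM in the first of these clusters and at 60.8 to 75.7 CPM in the others of OVX. These values were chosen after they were seen and were not tested.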
